A study of Mus musculus with 38 samples.

Results

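The proteasome was followed as a family of 46 genes, chosen by name: every symbol that consists of PSM, a letter from A to G and a number. Of the 21032 gene symbols in the RNA files of the series, these 46 matched, and 45 of them were present in all 14 RNA libraries. The remaining one, Psma8, a meiotic alpha subunit, was present in the plasma cell and inhibitor files only, at 0.0348 RPKM or less in the plasma cell libraries and 0.0448 RPKM or less in the inhibitor libraries. Psme2 and Psmb11 were not analysed here. The immunoproteasome is therefore represented by 4 genes, Psmb8, Psmb9, Psmb10 and Psme1, and the other 41 genes form the constitutive proteasome with its activators, inhibitor and assembly chaperones.

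RNA was sequenced from C57BL/6 mouse B lineage cells in 7 groups of 2 libraries. The sort of 4 day cultures with lipopolysaccharide (LPS), which comes from the bacterial wall and drives B cells towards antibody secretion, gave activated B cells as CD138–GFP–, pre-plasmablasts as CD138–GFP+ and plasmablasts as CD138+GFP+, all of them Blimp1(GFP/+) Cd23(Cre/+). Blimp1-deficient pre-plasmablasts were Blimp1(GFP/fl) Cd23(Cre/+) cells from the same kind of 4 day culture, sorted as CD138–GFP+CD22hi, so that genotype and sort gate differ together from the control pre-plasmablasts. Pre-plasmablasts (CD138–GFP+) of Blimp1(GFP/+) genotype came from 4 day LPS cultures that held either DMSO or GSK343, which blocks the chromatin methyltransferase EZH2. Plasma cells were Blimp1(GFP/+) and were sorted ex vivo as CD28+CD138+GFP+Lin–. All groups carry a GFP reporter allele of Blimp1, so the controls have 1 unmodified allele and no group is wild type. Cd23-Cre deletes in B cells, and the activated B cells, control pre-plasmablasts and plasmablasts carry it too. The labels give no age and do not say whether separate mice or cultures stand behind the 2 libraries of each group. The p-values then cover the spread between these libraries alone, which may be technical.

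The proteasome degrades proteins tagged with ubiquitin. Its barrel-shaped core particle holds the protease sites, and its regulatory particle recognises, unfolds and feeds in the substrates. In immune cells 3 catalytic subunits, Psmb5, Psmb6 and Psmb7, can be replaced by the interferon-inducible Psmb8, Psmb9 and Psmb10, which changes the peptides offered for presentation on MHC class I. Plasma cells secrete large amounts of antibody and are known for their sensitivity to proteasome inhibitors. Blimp1, encoded by Prdm1, is the transcription factor required for antibody-secreting cells.

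Levels are RPKM, a read count corrected for sequencing depth and gene length and thus a level per length. The 8 libraries of activated B cells, both kinds of untreated pre-plasmablast and plasmablasts were corrected for GC content by the authors, and the 4 inhibitor and 2 plasma cell libraries were not, so tests were made only within the first 8 or within the 4. Differences are on the log2(RPKM + 1) scale with the standard error, and a gene is called at an adjusted p below 0.05 (limma, Benjamini-Hochberg over 10473 genes, or 9479 in the inhibitor libraries). All 45 members passed the expression filter. Prdm1 stood at 7.45 and 10.7 RPKM in activated B cells, 429 and 327 in pre-plasmablasts and 199 and 171 in Blimp1-deficient pre-plasmablasts, and a value for the whole gene does not show which exons were read. Sdc1, which encodes CD138, was at most 0.584 RPKM in activated B cells, 32.7 and 30.5 in plasmablasts and 779.7 and 753 in plasma cells, and the B cell gene Pax5 was highest in the activated and Blimp1-deficient libraries. The 8 libraries carry 2 series of library numbers, 11746 to 11749 and 11951 to 11954, with 1 library of each group in each series. The difference between the series was shared by the groups (r = 0.666 to 0.781 across 10473 genes, which are not independent), so the members called only with the library series as a block are named as such, and the adjusted p with the block is given for several of them. In bulk libraries, fewer cells of a type and less RNA per cell cannot be told apart.

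As a whole the family took a similar share of the transcript signal in the 4 groups that share a file type. The 45 genes summed to 1.03% and 1.03% of all RPKM in activated B cells, 0.993% and 0.997% in pre-plasmablasts, 0.933% and 0.946% in plasmablasts, with 1.01% and 1.01% in Blimp1-deficient cells. Both plasmablast libraries lay below the other 6. The share was 0.854% and 0.894% in plasma cells, 1.397% and 1.48% with DMSO and 1.36% and 1.37% with GSK343, values whose denominators hold more genes. The makeup of the family varied more than its size. The 4 immunoproteasome genes made up 20.7% and 19.0% of the family's RPKM in activated B cells, 15.3% and 14.5% in pre-plasmablasts, 14.9% and 13.5% in plasmablasts, 22.4% and 20.9% in Blimp1-deficient cells and 27.6% and 28.1% in plasma cells. The ranges of pre-plasmablasts and plasmablasts overlapped, and all 4 of those libraries were below every activated B cell and Blimp1-deficient library.

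**Figure D1:**
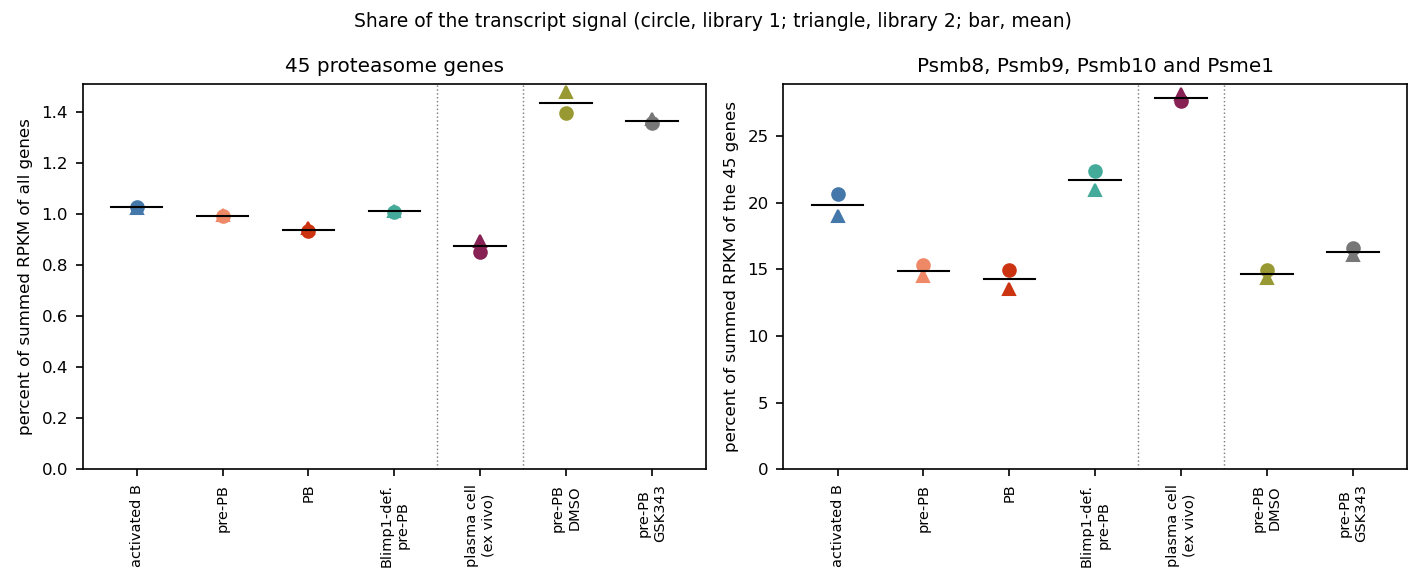
Share of the summed RPKM of all genes taken by the 45 proteasome genes (left, percent) and share of the family's own RPKM taken by Psmb8, Psmb9, Psmb10 and Psme1 (right, percent), per library in 7 groups, with the mean as a bar. The left values lie between 0.933% and 1.03% in the 4 groups with GC-corrected files, while the right values are 20.7% and 19.0% in activated B cells and 15.3% and 14.5% in pre-plasmablasts; dotted lines separate file types.

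Between activated B cells and pre-plasmablasts, 4 of the 45 members rose (Psmb5, Psmb6, Psmc1 and Psmd14) and 5 fell (Psmb8, Psmb9, Psmb10, Psmc5 and Psme3). Of all genes tested, 20.2% were called higher and 28% lower. The members' median difference was -0.00028 on the log2 scale against -0.12 over all genes. Between pre-plasmablasts and plasmablasts no member was called higher or lower, against 0.716% and 1.62% of all genes (limma with Benjamini-Hochberg adjustment). At an unadjusted p below 0.05, 3 members were lower in plasmablasts, Psmb8, Psmb9 and Psmc5. Those 3 were among 7 called lower with the library series as a block. The members' median was -0.091 against -0.043 over all genes. Between activated B cells and plasmablasts, 3 rose (Psmb5, Psmb6 and Psmd14) and 7 fell (Psmb8, Psmb9, Psmb10, Psmc5, Psme3, Psmg1 and Psmg3), against 21.3% higher and 33.9% lower among all genes, with medians of -0.12 and -0.18. These comparisons share libraries and are not independent of each other.

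The Blimp1-deficient pre-plasmablasts differed from the control pre-plasmablasts in 9 members. The 4 immunoproteasome genes were called higher, and Psmb5, Psmb6, Psmc1, Psmc3 and Psmd3 were called lower, against 24.4% higher and 16.1% lower among all genes, with medians of -0.0086 over the members and 0.12 over all genes. Set against activated B cells, the same Blimp1-deficient libraries differed in 2 members, Psmd14 higher and Psmc4 lower, against 10.4% and 7.6% of all genes, with medians of -0.0047 and 0.0039. With GSK343, Psmb10 was called higher and Psma2, Psmc1 and Psmd14 lower than with DMSO, against 12.7% and 5.86% of all genes, with medians of -0.013 and 0.017. Since the Blimp1-deficient libraries share their control pre-plasmablasts with the first comparison, opposite signs in both were not read as separate support.

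These counts depend on how libraries are scaled. Median-of-ratios scaling moved the median of all genes from -0.12 to -0.018 between activated B cells and pre-plasmablasts, from -0.18 to -0.011 between activated B cells and plasmablasts, and from 0.12 to 0.00073 in the Blimp1-deficient comparison. After that scaling, 8 members were called higher and 3 lower in pre-plasmablasts than in activated B cells, against 23.2% and 21.9% of all genes. Psma3, Psmb3, Psmb4 and Psmd12 were gained as higher there, and Psmb9 and Psme3 were lost as lower. In plasmablasts against activated B cells 10 were higher and 4 lower (26.5% and 25.1% of all genes). Gained as higher were Psma3, Psma7, Psmb3, Psmb4, Psmc1, Psmd12 and Psme4, and Psme3, Psmg1 and Psmg3 were lost as lower. In Blimp1-deficient against control pre-plasmablasts 2 were higher and 10 lower (17.7% and 19.6%). Psma7, Psmb3, Psmc4, Psmd7 and Psmd12 were gained as lower in that comparison, and Psmb10 and Psme1 were lost as higher. The scaled shares of all genes were 0.984% and 1.34% for plasmablasts against pre-plasmablasts, 9.78% and 7.55% for Blimp1-deficient pre-plasmablasts against activated B cells, and 11.1% and 9.03% for GSK343 against DMSO, where 0 and 0, 1 and 0, and 0 and 4 members were called. No named call changed direction.

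With the library series as a block, every call made without it was kept and further members were called. In pre-plasmablasts against activated B cells, 12 members were higher and 10 lower, against 27.9% and 41.7% of all genes. The 13 members called with the block alone were Psma3, Psma7, Psmb2, Psmb3, Psmb4, Psmc2, Psmd12 and Psme4 as higher, with Psma6, Psmd9, Psme1, Psmg1 and Psmg3 as lower. In plasmablasts against pre-plasmablasts, 7 were lower and none higher (13.3% and 7% of all genes), namely Psma1, Psmb4, Psmb8, Psmb9, Psmc5, Psmd11 and Psmg3. In plasmablasts against activated B cells, 9 were higher and 20 lower (28% and 47.4% of all genes), of which 19 rest on the block. Those were Psma7, Psmb4, Psmc1, Psmc2, Psmd12 and Psme4 as higher, and Psma1, Psma6, Psmb1, Psmc4, Psmd4, Psmd5, Psmd8, Psmd9, Psmd10, Psmd11, Psme1, Psmg2 and Psmg4 as lower. In Blimp1-deficient against control pre-plasmablasts, 11 were higher and 14 lower (40.4% and 24.9% of all genes). Here the block added Psma6, Psmc5, Psmd5, Psmd10, Psme3, Psmg3 and Psmg4 as higher, and Psma7, Psmb3, Psmb4, Psmc2, Psmc4, Psmd1, Psmd7, Psmd12 and Psme4 as lower. In Blimp1-deficient pre-plasmablasts against activated B cells, 3 were higher and 7 lower (22.1% and 20.6% of all genes), with Psmb9 and Psmg4 added as higher and Psmb10, Psmc2, Psmc3, Psmc5, Psmd1 and Psmd3 as lower.

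**Figure D2:**
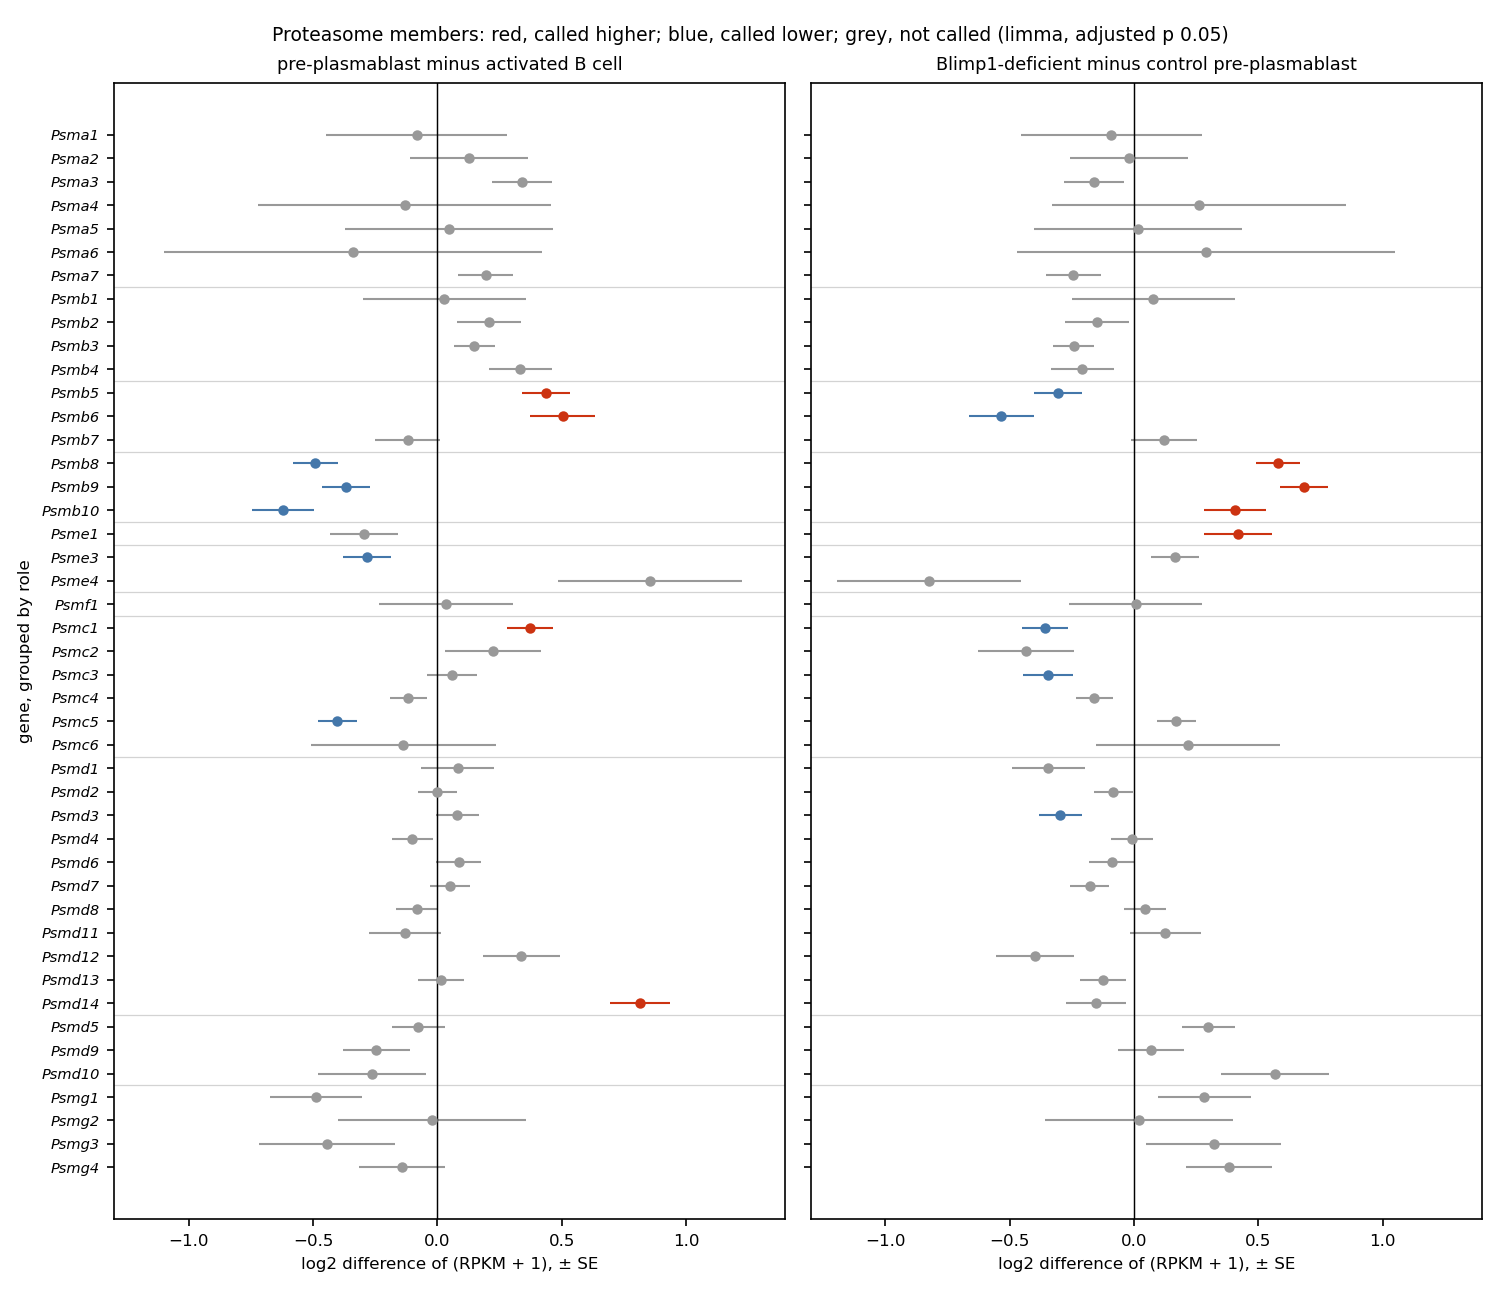
Difference on the log2(RPKM + 1) scale with its standard error for each of 45 proteasome genes, ordered by role, for pre-plasmablasts minus activated B cells (left) and Blimp1-deficient minus control pre-plasmablasts (right), from limma with 2 libraries a group. Red and blue points are called higher and lower; Psmb8, Psmb9 and Psmb10 are blue on the left and red on the right, and Psmb5, Psmb6 and Psmc1 the reverse, both panels sharing the control pre-plasmablast libraries.

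The catalytic immunoproteasome subunits were lower in pre-plasmablasts and plasmablasts than in activated B cells. Psmb8, which carries the chymotrypsin-like site, stood at 375 and 336 RPKM in activated B cells, 258 and 247 in pre-plasmablasts and 213 and 217 in plasmablasts. It was 383 and 372 in Blimp1-deficient pre-plasmablasts. Activated and Blimp1-deficient libraries overlapped and lay above every pre-plasmablast and plasmablast library, and both plasmablast libraries lay below both pre-plasmablast ones. The difference was -0.49 ± 0.09 between pre-plasmablasts and activated B cells (limma, adjusted p = 0.00456), -0.23 ± 0.09 between plasmablasts and pre-plasmablasts (limma, adjusted p = 0.277, or 0.0277 with the series block) and 0.58 ± 0.09 between Blimp1-deficient and control pre-plasmablasts (limma, adjusted p = 0.00295).

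Psmb9, the partner that replaces Psmb6, was 271 and 247 RPKM in activated B cells, 204 and 196 in pre-plasmablasts, 165 and 154 in plasmablasts, with 339 and 307 in the Blimp1-deficient cells. No 2 of these groups overlapped, and the Blimp1-deficient libraries were highest. The difference was -0.37 ± 0.10 between pre-plasmablasts and activated B cells (limma, adjusted p = 0.0205), which median-of-ratios scaling took to 0.0976, and 0.68 ± 0.10 in the Blimp1-deficient comparison (limma, adjusted p = 0.0021). Plasmablasts and pre-plasmablasts differed by -0.32 ± 0.10 (limma, adjusted p = 0.171, or 0.0047 with the series block). Blimp1-deficient pre-plasmablasts and activated B cells differed by 0.32 ± 0.10 (limma, adjusted p = 0.0727, or 0.00147 with the block).

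Psmb10, which replaces Psmb7, was the least abundant of the set, at 90.5 and 79.8 RPKM in activated B cells, 57.6 and 52.3 in pre-plasmablasts, 60.7 and 50.5 in plasmablasts, with 76.4 and 70.0 in Blimp1-deficient cells. Pre-plasmablast and plasmablast libraries overlapped, and Blimp1-deficient libraries lay between them and the activated B cells. The difference was -0.62 ± 0.12 for pre-plasmablasts against activated B cells (limma, adjusted p = 0.00662) and 0.41 ± 0.12 for Blimp1-deficient against control pre-plasmablasts (limma, adjusted p = 0.0399, or 0.15 after median-of-ratios scaling). Psme1, a subunit of the interferon-inducible activator ring that caps the core particle, was 208 and 188 RPKM in activated B cells, 170.1 and 152 in pre-plasmablasts, 184 and 145 in plasmablasts, with 221 and 209.9 in Blimp1-deficient cells. The plasmablast libraries spanned the pre-plasmablast ones, and the Blimp1-deficient libraries were highest. Pre-plasmablasts and activated B cells differed by -0.30 ± 0.14 (limma, adjusted p = 0.119, or 0.00514 with the series block). Blimp1-deficient and control pre-plasmablasts differed by 0.42 ± 0.14 (limma, adjusted p = 0.0488, or 0.17 after scaling).

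Leaving out each library in turn separated these calls. For pre-plasmablasts against activated B cells, the calls of Psmb8 (limma, adjusted p = 0.0103 to 0.0358) and Psmb10 (0.0071 to 0.0452) held in all 8 fits, while Psmb9 was lost without the first activated B cell library or either pre-plasmablast library. For Blimp1-deficient against control pre-plasmablasts, Psmb8 (0.00569 to 0.0225) and Psmb9 (0.00475 to 0.0171) held in all 8 fits. Psmb10 and Psme1 were each called in the 2 fits that left out a plasmablast library, and in none of the other 6, where the adjusted p reached 0.168 and 0.192. A fit that leaves a group with 1 library takes that library to vary like the other groups.

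Summed levels of myeloid markers stood in the same order across the 4 groups as the means of Psmb8 and Psmb9, although the markers did not all move alike. The means of Psmb10 and Psme1 did not stand in that order. Psmb10 was highest in activated B cells, at 85.2 RPKM against 73.2 in Blimp1-deficient cells. Psme1 was 161 RPKM in pre-plasmablasts and 165 in plasmablasts. Of 8 myeloid markers, 3 were in the GC-corrected files (Itgam, Tyrobp and Fcer1g), and their summed RPKM was 24.8 to 31.3 in activated B cells, 12.3 to 17.2 in pre-plasmablasts, 4.48 to 6.69 in plasmablasts, with 35.9 to 43.1 in Blimp1-deficient cells. Itgam and Tyrobp were called lower in pre-plasmablasts than in activated B cells and higher in Blimp1-deficient than in control pre-plasmablasts. Fcer1g, in contrast, was 2.66 and 2.88 RPKM in activated B cells and 8.38 and 12.9 in pre-plasmablasts (1.60 ± 0.25, limma, adjusted p = 0.00245), and it was not called in the Blimp1-deficient comparison (-0.097 ± 0.25, limma, adjusted p = 0.795). Of 7 natural killer or dendritic cell markers, 4 were in these files (Flt3, Batf3, Zbtb46 and Xcr1), with sums of 51.6 to 59.3, 21.7 to 25.5, 9.57 to 9.67 and 31.4 to 37.7, with the groups listed as for the myeloid sums. Of 7 T cell markers only Cd247 was in them, at 3.43 to 4.98 in Blimp1-deficient and 4.27 to 6.31 in control pre-plasmablasts. The part of such cells in the immunoproteasome values was not tested.

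The start regions of the genes whose calls are described most closely are shown because Blimp1 and the interferon regulatory factors bind related letters. They are RefSeq promoters on build GRCm38.p6, 250 bases before to 50 bases after the annotated start, and were available for 38 of the 46 members. Capitals mark any match, on either strand, to an ISRE core (GAAA, any 2 letters, GAAA), a Blimp1-type word (AGNGAAAG), an ETS-IRF composite (GGAA, any 2 letters, GAAA), an antioxidant response core (TGACNNNGC, the kind of element bound by Nfe2l1) or a CCAAT box (CCAAT). Genes and words were chosen after the values were seen. Psmb8 (chr17:34197945-34198244, plus strand) and Psmb9 (chr17:34187281-34187580, minus strand) lie near each other on chromosome 17, and Psme1 is at chr14:55578244-55578543, plus strand.
Psmb8: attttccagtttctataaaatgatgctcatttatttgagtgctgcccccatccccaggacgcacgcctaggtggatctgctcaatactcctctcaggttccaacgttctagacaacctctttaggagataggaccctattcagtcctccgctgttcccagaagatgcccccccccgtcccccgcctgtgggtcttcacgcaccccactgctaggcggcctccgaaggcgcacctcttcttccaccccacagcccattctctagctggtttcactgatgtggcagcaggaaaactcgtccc
Psmb9: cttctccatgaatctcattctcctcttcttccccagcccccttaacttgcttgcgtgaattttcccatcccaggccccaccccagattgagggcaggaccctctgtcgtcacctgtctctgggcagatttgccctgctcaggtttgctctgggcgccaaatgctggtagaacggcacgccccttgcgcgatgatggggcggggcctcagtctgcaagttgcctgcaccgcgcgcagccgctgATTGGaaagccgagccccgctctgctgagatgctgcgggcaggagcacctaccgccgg
Psme1: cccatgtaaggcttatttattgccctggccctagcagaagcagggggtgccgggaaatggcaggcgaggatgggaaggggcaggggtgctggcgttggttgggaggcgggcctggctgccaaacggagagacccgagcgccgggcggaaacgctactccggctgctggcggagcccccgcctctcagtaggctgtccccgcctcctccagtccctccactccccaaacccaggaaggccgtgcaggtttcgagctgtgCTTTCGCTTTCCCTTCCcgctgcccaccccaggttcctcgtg
The Psmb8 window held none of the 5 words, and the Psmb9 window held a CCAAT box on the minus strand. In Psme1 a single run of 17 letters in capitals, beginning 8 bases after the start, held an ISRE core, a pair of overlapping Blimp1-type words and an ETS-IRF composite, all on the minus strand and sharing letters with one another. The first listed start of each gene was counted. Over all 27025 such promoters, 3.49% held the ISRE core, 8.5% the Blimp1-type word and 2.79% the ETS-IRF composite. Among the 38 members they were found in 5 (Psme1, Psmd4, Psmd9, Psmb3 and Psmg4), 4 (Psme1, Psma1, Psmg4 and Psmd10) and 1 (Psme1). A second listed start of Psmc2, not counted, held a Blimp1-type word and an ETS-IRF composite, and one of Psma6 held none of the 5 words. The Psmb10 window, whose listed start was in doubt, is counted among the 38 but not shown. A match is a run of letters and not a measured binding site.

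The constitutive catalytic subunits that Psmb8 and Psmb9 replace were higher in pre-plasmablasts than in activated B cells. Psmb5, the constitutive chymotrypsin-like subunit, stood at 59.2 and 58.7 RPKM in activated B cells, 76.0 and 84.7 in pre-plasmablasts, 73.5 and 82.6 in plasmablasts, with 63.9 and 65.6 in Blimp1-deficient cells. Pre-plasmablasts and plasmablasts overlapped and were above the other 4 libraries. The rise was 0.44 ± 0.10 for pre-plasmablasts against activated B cells (limma, adjusted p = 0.00958), and the Blimp1-deficient libraries were different from the control pre-plasmablasts by -0.30 ± 0.10 (limma, adjusted p = 0.0438). Without the second library of either group the first call was lost (adjusted p up to 0.0557). The last call was lost in each of the 8 fits without 1 library (adjusted p = 0.0512 to 0.193).

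Psmb6, the constitutive caspase-like subunit, was 111 and 103 RPKM in activated B cells, 168 and 136 in pre-plasmablasts, 166 and 150.1 in plasmablasts, with 110.5 and 98.6 in Blimp1-deficient cells. The activated and Blimp1-deficient libraries overlapped, below all others. The differences were 0.50 ± 0.13 (limma, adjusted p = 0.0178) against activated B cells and -0.53 ± 0.13 (limma, adjusted p = 0.0174) for Blimp1-deficient against control pre-plasmablasts. These calls were lost in 3 and 2 of the 8 fits without 1 library (adjusted p up to 0.0899 and 0.0922), among them those without the first pre-plasmablast library. Psmb7, the trypsin-like subunit, was 111 and 106 RPKM in activated B cells and 88.5 and 113 in pre-plasmablasts, which overlapped. It was 90.04 and 99.8 in plasmablasts, with 105 and 113 in Blimp1-deficient cells. It was called in none of the comparisons (limma, adjusted p = 0.493 for pre-plasmablasts against activated B cells).

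**Figure D3:**
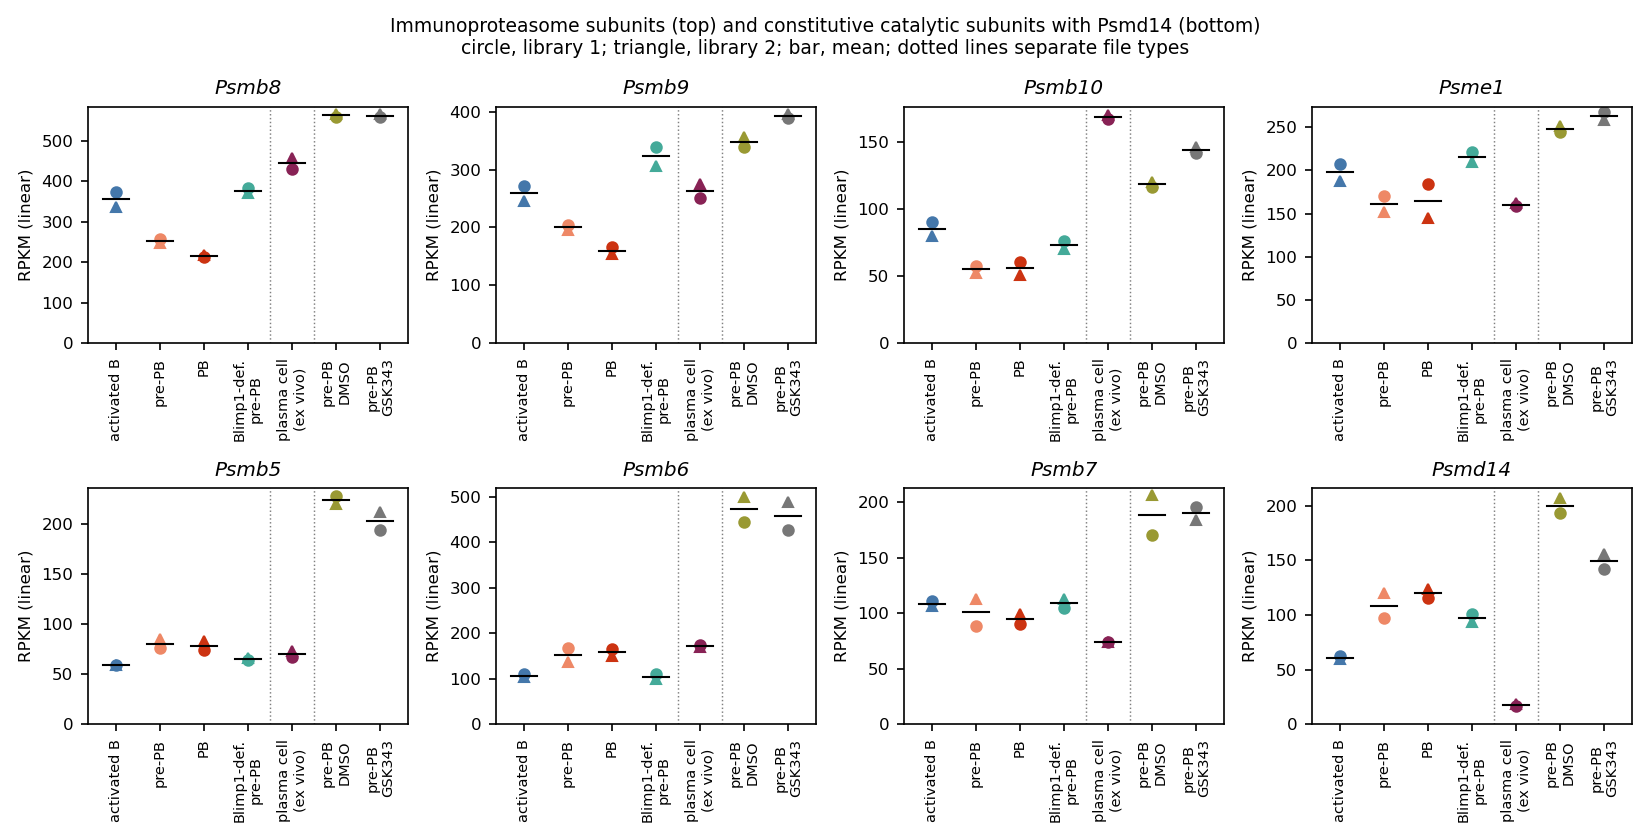
RPKM of Psmb8, Psmb9, Psmb10 and Psme1 (top) and of Psmb5, Psmb6, Psmb7 and Psmd14 (bottom) per library in 7 groups, on linear axes from 0, with the mean as a bar. Psmb8 falls from 375 and 336 RPKM in activated B cells to 258 and 247 in pre-plasmablasts and stands at 383 and 372 in Blimp1-deficient pre-plasmablasts; dotted lines separate file types, which were normalised differently.

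Set as a ratio within each library, which a scaling factor cannot change, Psmb8 and Psmb9 were lower relative to their constitutive partners in every pre-plasmablast and plasmablast library than in every activated B cell and Blimp1-deficient library. Psmb8 was 5.73 to 6.33 times the level of Psmb5 in activated B cells, 2.92 to 3.39 times in pre-plasmablasts, 2.63 to 2.90 times in plasmablasts, with 5.67 to 5.99 times in Blimp1-deficient cells. The ratio of Psmb9 to Psmb6 was 2.40 to 2.45, 1.21 to 1.44, 0.997 to 1.03 and 3.07 to 3.11 in the same order. For Psmb8 the activated and Blimp1-deficient libraries overlapped, and the mean log2 ratios of pre-plasmablasts and plasmablasts, 1.65 and 1.47, lay about as far apart as the 2 pre-plasmablast libraries, at 1.55 and 1.76. Within each library series the log2 ratio was lower in plasmablasts, at 1.54 against 1.76 in the first and 1.39 against 1.55 in the second. For Psmb9 no 2 of the 4 groups overlapped. Psmb10 was below Psmb7 in all 8 libraries, at 0.750 to 0.814 of its level in activated B cells and 0.463 to 0.651 in pre-plasmablasts. Its ratio was 0.506 to 0.675 in plasmablasts and 0.618 to 0.730 in Blimp1-deficient cells, both of which overlapped the pre-plasmablasts. With 2 libraries a group, an exact two-sided permutation test cannot go below p = 0.33, so the ratios are given without a test.

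**Figure D4:**
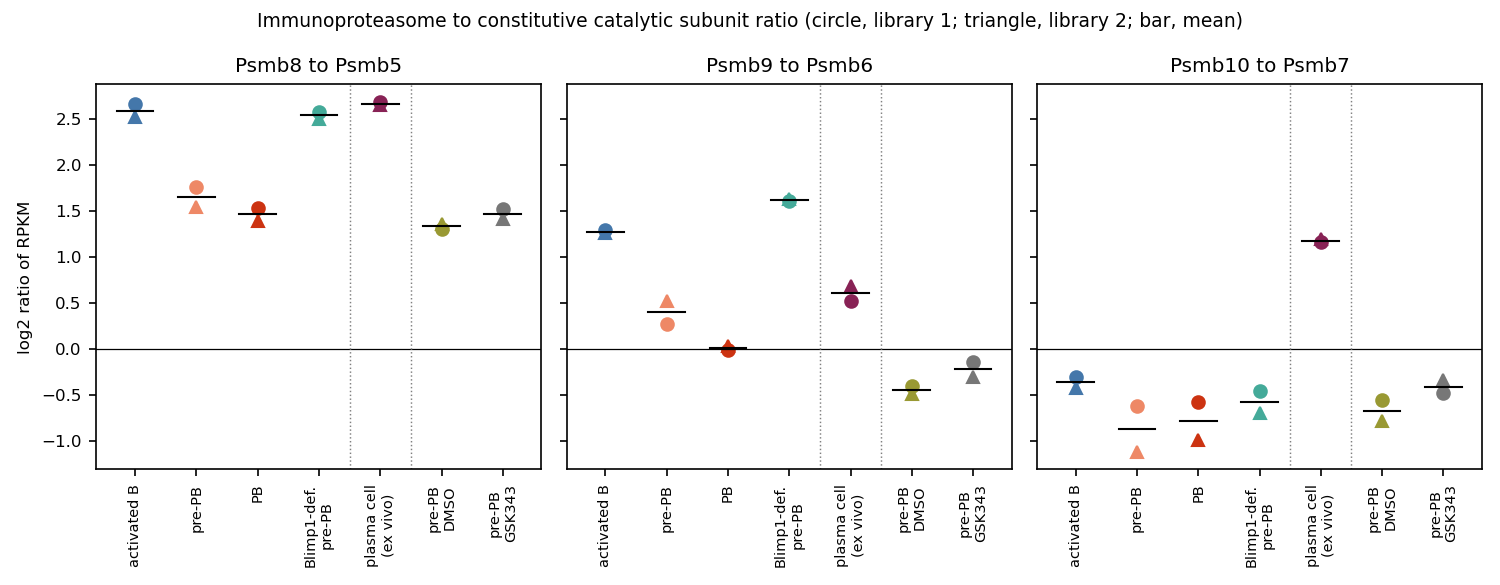
log2 ratio of RPKM of each immunoproteasome catalytic subunit to the constitutive subunit it replaces, per library in 7 groups, with the mean as a bar; 0 marks equal levels. The Psmb8 to Psmb5 ratio lies at 2.59 in activated B cells, 1.65 in pre-plasmablasts, 1.47 in plasmablasts, with 2.54 in Blimp1-deficient cells, and Psmb10 exceeds Psmb7 only in plasma cells.

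The remaining core subunits are the structural alpha ring and the beta subunits without a protease site. In the comparisons among the 8 libraries they gave no call without the series block or median-of-ratios scaling. With either of these, several were called, as named above. Among 7 alpha subunits, Psma3 had the largest and Psma6 the lowest difference between pre-plasmablasts and activated B cells. Psma3 was 5.19 and 5.13 RPKM in activated B cells and 7.30 and 6.34 in pre-plasmablasts, which did not overlap (0.34 ± 0.12, limma, adjusted p = 0.0549, or 0.0205 with the series block and 0.0227 after scaling). Psma6 was 83.4 and 220.4 RPKM in activated B cells, 70.2 and 163 in pre-plasmablasts, 54.4 and 164 in plasmablasts, with 83.5 and 205 in Blimp1-deficient cells. In each group the library of the first series was the lower one, with a mean offset, first series minus second, of -1.36 on the log2 scale. The same offset was -1.04 for Psma4, -0.70 for Psma5 and -0.64 for Psma1, and it was 0.57 for Psmb1. In all, 8 of the 45 members had a mean offset over 0.5 in either direction, against 772 of 10473 genes. Psma6 therefore had an adjusted p of 0.744 in the limma fit and 0.00696 with the series block, with within-series differences of -0.25 and -0.43.

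Among the 4 beta subunits without a protease site, Psmb4 had the largest and Psmb1 the smallest difference between pre-plasmablasts and activated B cells. Psmb4 was 259.8 and 282 RPKM in activated B cells and 321 and 362 in pre-plasmablasts (0.33 ± 0.13, limma, adjusted p = 0.0704, or 0.00055 with the series block). This difference was also called after median-of-ratios scaling. Psmb1 was 337 and 224 and 359 and 219 RPKM, which overlapped (0.027 ± 0.33, limma, adjusted p = 0.954).

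In the regulatory particle, the member with the largest called rise was Psmd14, the deubiquitinase of the lid that removes ubiquitin from substrates as they enter. Psmd14 was 62.0 and 59.8 RPKM in activated B cells, 96.8 and 120.2 in pre-plasmablasts, 115 and 124 in plasmablasts, with 101 and 93.1 in Blimp1-deficient cells. All 6 GFP+ libraries were above both activated B cell libraries, and the Blimp1-deficient and control pre-plasmablasts overlapped. The difference was 0.81 ± 0.12 for pre-plasmablasts, 0.96 ± 0.12 for plasmablasts and 0.66 ± 0.12 for Blimp1-deficient pre-plasmablasts, each against activated B cells (limma, adjusted p = 0.00179, 0.00067 and 0.0126). The first 2 calls held in all 8 fits without 1 library, and the third was lost in the 4 fits without an activated B cell or Blimp1-deficient library (adjusted p up to 0.0763). Blimp1-deficient and control pre-plasmablasts differed by -0.15 ± 0.12 (limma, adjusted p = 0.358). Psmd14 was the 1 member called higher than in activated B cells in the Blimp1-deficient libraries as well. Psmb5 and Psmb6 differed there by 0.13 ± 0.10 and -0.03 ± 0.13 (limma, adjusted p = 0.423 and 0.918).

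Of the 6 ATPases that unfold substrates, Psmc1 was called higher and Psmc5 lower in pre-plasmablasts than in activated B cells. Psmc1 was 83.6 and 79.2 RPKM in activated B cells, 106 and 105 in pre-plasmablasts, 95.9 and 94.8 in plasmablasts, with 87.9 and 76.8 in Blimp1-deficient cells, so that the activated and Blimp1-deficient libraries overlapped at the low end. Its differences were 0.37 ± 0.092 (limma, adjusted p = 0.0151) and, for Blimp1-deficient against control pre-plasmablasts, -0.36 ± 0.092 (limma, adjusted p = 0.0214). The first was lost without the second activated B cell library or either pre-plasmablast library (adjusted p up to 0.0856), and the second without either pre-plasmablast library or the second Blimp1-deficient library (up to 0.106). Psmc5 was 122 and 115 RPKM in activated B cells, 87.6 and 90.9 in pre-plasmablasts, 71.0 and 74.5 in plasmablasts, with 101 and 100.1 in Blimp1-deficient cells, 4 groups that did not overlap. Its differences from activated B cells were -0.40 ± 0.078 in pre-plasmablasts and -0.69 ± 0.078 in plasmablasts (limma, adjusted p = 0.00589 and 0.00043), and both held in all 8 fits without 1 library. The step from pre-plasmablasts to plasmablasts was -0.29 ± 0.078 (limma, adjusted p = 0.135, or 0.0102 with the series block).

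Psmc3, another ATPase, was 121 and 113 RPKM in control and 96.0 and 87.4 in Blimp1-deficient pre-plasmablasts (-0.35 ± 0.10, limma, adjusted p = 0.0335). The lid subunit Psmd3 was 139 and 138 and 111 and 114 RPKM (-0.30 ± 0.087, limma, adjusted p = 0.0344). Neither pair of groups overlapped, and each call was lost in 6 of the 8 fits without 1 library. Psmc4 was 113 and 109 RPKM in activated B cells and 91.9 and 91.0 in Blimp1-deficient pre-plasmablasts (-0.28 ± 0.074, limma, adjusted p = 0.0481, or 0.0563 after scaling), a call lost in all 8 fits without 1 library. Psmd11, with the lowest difference of the 11 non-ATPase subunits between pre-plasmablasts and activated B cells, was 31.9 and 37.7 and 29.2 and 34.2 RPKM, which overlapped (-0.13 ± 0.14, limma, adjusted p = 0.491).

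The start regions of Psmb5 (chr14:54617946-54618245, minus strand), Psmb6 (chr11:70525107-70525406, plus strand) and Psmd14 (chr2:61711444-61711743, plus strand) are shown with the same capitals, as the 3 members called higher in both pre-plasmablasts and plasmablasts.
Psmb5: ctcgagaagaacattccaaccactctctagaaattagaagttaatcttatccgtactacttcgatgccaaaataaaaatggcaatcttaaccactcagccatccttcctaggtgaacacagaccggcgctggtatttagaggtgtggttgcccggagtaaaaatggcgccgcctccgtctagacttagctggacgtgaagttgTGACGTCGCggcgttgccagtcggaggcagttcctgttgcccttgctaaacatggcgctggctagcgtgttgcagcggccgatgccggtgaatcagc
Psmb6: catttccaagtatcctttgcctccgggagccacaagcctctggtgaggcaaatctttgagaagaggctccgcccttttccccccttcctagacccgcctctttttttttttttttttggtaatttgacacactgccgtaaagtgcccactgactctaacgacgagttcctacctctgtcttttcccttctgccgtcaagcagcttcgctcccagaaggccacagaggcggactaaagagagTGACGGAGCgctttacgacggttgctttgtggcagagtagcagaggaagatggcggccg
Psmd14: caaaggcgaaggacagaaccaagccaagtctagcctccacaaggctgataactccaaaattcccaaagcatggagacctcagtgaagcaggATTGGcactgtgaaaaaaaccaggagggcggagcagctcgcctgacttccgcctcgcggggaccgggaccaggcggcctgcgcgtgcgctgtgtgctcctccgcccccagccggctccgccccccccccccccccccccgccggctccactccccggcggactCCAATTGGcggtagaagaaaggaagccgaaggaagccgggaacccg
Psmb5 and Psmb6 each held 1 antioxidant response core, TGACGTCGC and TGACGGAGC, beginning 47 and 9 bases before the start. This core was in 6 of the 38 members' promoters (Psmb5, Psmb6, Psmc6, Psmd9, Psmd12 and Psme4), against 12.5% of all 27025 promoters. Psmd14 held CCAAT boxes on both strands near its start and 1 farther upstream. A CCAAT box was in 13 of the 38 members' promoters and in 37.9% of all promoters.

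Among the activators outside the interferon-inducible ring, Psme3, which forms a nuclear activator, was 101 and 109.9 RPKM in activated B cells, 81.2 and 92.3 in pre-plasmablasts, 80.6 and 80.3 in plasmablasts, with 94.8 and 99.6 in Blimp1-deficient cells. The activated B cells were highest without overlap, at -0.28 ± 0.10 for pre-plasmablasts (limma, adjusted p = 0.0481, or 0.206 after scaling), a call lost in 7 of 8 fits without 1 library, and -0.39 ± 0.10 for plasmablasts (limma, adjusted p = 0.0133, or 0.137 after scaling). Psme4, a large single-chain activator, was 9.92 and 17.4 RPKM in activated B cells, 19.5 and 31.0 in pre-plasmablasts, 22.4 and 34.9 in plasmablasts, with 10.8 and 16.8 in Blimp1-deficient cells. In each group the library of the second series was the higher, and all 4 pre-plasmablast and plasmablast libraries were above all 4 of the others. The difference between pre-plasmablasts and activated B cells was 0.85 ± 0.37 (limma, adjusted p = 0.102), and within the 2 series it was 0.91 and 0.80 (adjusted p = 1.1e-05 with the series block in limma). For Blimp1-deficient against control pre-plasmablasts it was -0.82 ± 0.37 (limma, adjusted p = 0.124), -0.80 and -0.85 within the series (adjusted p = 1.9e-05 with the block). Psmf1, an inhibitor of the core particle, was 19.6 and 14.8, 22.0 and 13.9, 18.3 and 13.7 and 20.4 and 15.2 RPKM in the same 4 groups, which all overlapped (limma, adjusted p = 0.927 for pre-plasmablasts against activated B cells).

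The 4 chaperones that assemble the core particle had a median difference of -0.47 between plasmablasts and activated B cells, and 2 of the 4 were called lower, against a median of -0.18 and 33.9% called lower over all genes. Psmg1 was 28.9 and 30.6 RPKM in activated B cells, 19.9996 and 21.8 in pre-plasmablasts, 17.0 and 20.1 in plasmablasts, with 31.2 and 21.0 in Blimp1-deficient cells. Psmg3 was 36.6 and 24.4, 24.6 and 19.2, 19.9 and 13.5 and 31.7 and 23.6 RPKM. Activated B cells and plasmablasts did not overlap for either gene, with differences of -0.66 ± 0.19 and -0.83 ± 0.27 (limma, adjusted p = 0.0224 and 0.0391, or 0.0671 and 0.0996 after scaling). These calls were lost in 3 and 2 of the 8 fits without 1 library (adjusted p up to 0.112 and 0.189). Psmg2 was 34.0 and 23.4 RPKM in activated B cells and 29.8 and 17.9 in plasmablasts, with the first series higher in each group, and Psmg4 was 42.0 and 52.5 and 35.2 and 43.7, with the second series higher; both overlapped and were not called in the limma fit without a block, and were called lower with it (adjusted p = 0.0212 and 0.00421).

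Of the 3 chaperones of the regulatory particle, none was called in any comparison without the block. Psmd5 was 21.9 and 20.2 RPKM in control and 25.2 and 27.1 in Blimp1-deficient pre-plasmablasts (0.30 ± 0.11, limma, adjusted p = 0.0664, or 0.0114 with the series block). Psmd10, also called gankyrin, was 10.3 and 15.1 and 17.7 and 20.3 RPKM (0.57 ± 0.22, limma, adjusted p = 0.0812, or 0.00463 with the block). For both genes the Blimp1-deficient libraries were above the control ones. Psmd9 was 15.2 and 13.0 RPKM in activated B cells and 12.5 and 10.9 in pre-plasmablasts, which did not overlap (-0.25 ± 0.13, limma, adjusted p = 0.176, or 0.0168 with the block).

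In the inhibitor cultures, 1 of the 45 members was called higher and 3 lower with GSK343, against 12.7% and 5.86% of all genes. Psmd14 was 193 and 207 RPKM with DMSO and 142 and 156 with GSK343, without overlap (-0.42 ± 0.081, limma, adjusted p = 0.00457). Psmc1 was 103 and 125 and 87.9 and 86.1 RPKM (-0.38 ± 0.10, limma, adjusted p = 0.0204). The alpha subunit Psma2 was 205 and 204 and 170.4 and 166 RPKM (-0.28 ± 0.074, limma, adjusted p = 0.0226). All 3 were lower with GSK343 in both libraries. Psmb10 was higher, at 117 and 119.9 RPKM with DMSO and 141 and 146 with GSK343 (0.28 ± 0.075, limma, adjusted p = 0.0257, or 0.0842 after scaling). The other immunoproteasome genes were not called: Psmb8 was 560.3 and 566 against 559 and 567 RPKM (-0.00097 ± 0.077), and Psmb9 was 339 and 356 against 389 and 396 RPKM (0.18 ± 0.077, limma, adjusted p = 0.143). None of the 4 calls held in all fits without 1 library, and without the expression filter no gene and no member was called (limma, 20650 genes). The summed RPKM of the 8 myeloid markers was 5.81 to 6.75 with DMSO and 19.0 to 20.4 with GSK343. Fcer1g alone was 2.09 and 2.60 against 13.7 and 14.8, and Cd14 was 0.308 and 0.423 against 2.08 and 1.60. Itgam was 0.147 and 0.154 against 0.518 and 0.470, whereas Tyrobp was 2.96 and 3.49 against 2.40 and 2.91. Csf1r was at or near 0 in both, and Lyz2, S100a8 and S100a9 were at 0.376 RPKM or less. The sum of the 7 natural killer or dendritic markers was 18.8 to 20.2 with DMSO and 15.6 to 15.8 with GSK343. The part of such cells in the proteasome values was not tested.

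Of the 7 groups, ex vivo plasma cells had the highest share of immunoproteasome genes within the family, in files that were normalised separately. The share was 14.9% and 14.3% with DMSO and 16.6% and 16.1% with GSK343. Levels also differed between file types within pre-plasmablasts. The ratio of Psmb9 to Psmb6 was 0.713 to 0.760 with DMSO and 1.21 to 1.44 in the GC-corrected control libraries, where culture and file type differ together. Psmb8 was 431 and 458 RPKM, Psmb9 251 and 275, Psmb10 167 and 169.8 and Psme1 158 and 163, while Psmb5 was 67.0 and 72.9, Psmb6 174 and 171 and Psmb7 74.3 and 74.0. Psmb8 was 6.28 to 6.44 times the level of Psmb5, and Psmb10 was 2.24 to 2.30 times that of Psmb7, the only group of the 7 in which Psmb10 exceeded its constitutive counterpart. Psmb9 was 1.44 to 1.61 times the level of Psmb6. Psmd14 was 16.5 and 18.3 RPKM, the lowest of the 11 non-ATPase subunits there, whereas Psmd8 was the highest at 141 and 135. Among the 7 alpha subunits other than Psma8, Psma3 was the lowest and Psma7 the highest, at 3.897 and 4.34 and 213 and 229 RPKM, an order that held in all 7 groups by their means. In the deposited plasma cell files, 5 read-counter summary names have no value of their own, which shifts the values after them against the names, so these levels rest on dropping those names: as deposited, Psmb8 would read 128 and 132 RPKM and Psmb9 5.25 and 4.20. After dropping them, the antibody joining chain gene Igj read 22670.4 and 18481 RPKM. The 7 T cell markers summed to 17.9 to 22.2 RPKM and the 8 myeloid markers to 74.4 to 114. The 7 natural killer or dendritic markers summed to 2.57 to 2.82. Cd8a, Trat1, Ncr1, Klrb1c and Batf3 were at or near 0. Among the T cell markers, Cd4 was 12.8 and 8.87 RPKM and Cd247 7.38 and 8.03. Cd3d was 0.255 and 0.177 RPKM, Cd3e 0.197 and 0.123 and Cd3g 1.60 and 0.631. Of the myeloid markers, Fcer1g was 30.9 and 33.4 RPKM, S100a9 46.1 and 14.9 and S100a8 14.0 and 6.29. Lyz2 was 9.96 and 6.24 RPKM, Itgam 6.39 and 6.21 and Tyrobp 6.17 and 5.80. Csf1r was 0.437 and 1.53 RPKM and Cd14 0.0758 and 0.0789. The part of other cell types in the immunoproteasome levels was not tested. Files, mice and sort differ from those of the cultured cells, so no test was made between them.

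Other genes of the pathway were followed from lists. Of 4 measured regulators of proteasome genes, 3 were called higher and 1 lower in pre-plasmablasts than in activated B cells, where 20.2% and 28% of all genes were. Nfe2l1, a transcription factor that induces proteasome subunits when proteasome activity falls, was 56.3 and 52.8 RPKM in activated B cells and 83.4 and 79.2 in pre-plasmablasts (0.57 ± 0.088, limma, adjusted p = 0.00226). Ngly1 and Vcp, which act in the release and processing of Nfe2l1 at the endoplasmic reticulum, rose by 1.11 ± 0.16 and 0.65 ± 0.093 (limma, adjusted p = 0.0014 and 0.00158). Nfe2l2, the related oxidative stress factor, fell, at -0.63 ± 0.16 (limma, adjusted p = 0.0186). In the Blimp1-deficient comparison, which shares the control libraries, Nfe2l1 was -0.53, Ngly1 -1.01, Vcp -0.53 and Nfe2l2 0.68, all called (limma, adjusted p = 0.00402, 0.00279, 0.00501 and 0.0175). With GSK343, Nfe2l1 was 26.3 and 24.7 RPKM against 32.3 and 36.2 with DMSO (-0.41 ± 0.094, limma, adjusted p = 0.0117). Nfe2l2 was called higher there, at 21.1 and 19.0 RPKM against 15.3 and 13.5 (0.45), and Ngly1 and Vcp were not called. Of all genes, 12.7% were called higher and 5.86% lower with GSK343.

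Of 16 proteasome-associated proteins outside the name pattern, 3 rose and 2 fell between activated B cells and pre-plasmablasts, against 20.2% higher and 28% lower over all genes. Txnl1, a thioredoxin bound to the regulatory particle, and the ubiquitin shuttle Rad23b rose by 1.13 ± 0.23 and 0.68 ± 0.17, and Usp14, a deubiquitinase of the regulatory particle, fell, at -0.71 ± 0.17 (limma, adjusted p = 0.00744, 0.0149 and 0.0137). Pomp, the chaperone that matures the core particle, was 205 and 219.8 and 208 and 231 RPKM, which overlapped (limma, adjusted p = 0.779). Of 5 ubiquitin genes and activating enzymes, Ubb rose by 0.42 ± 0.13 (limma, adjusted p = 0.0322). The medians of these lists were 0.012 and 0.11, against -0.12 over all genes.

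Class I antigen processing is the pathway that uses the immunoproteasome's peptides. In pre-plasmablasts against activated B cells, most of its called genes moved in the opposite direction to Psmb8, Psmb9 and Psmb10. Of 9 measured genes, 5 rose between activated B cells and pre-plasmablasts (B2m, Erap1, H2-K1, Irf1 and Tapbp), against 20.2% of all genes, with a median of 0.68. B2m, the class I light chain, was 1762 and 2598 and 5626 and 6693 RPKM, and H2-K1, a class I heavy chain whose near-identical relatives can share its reads, was 894 and 1067 and 2240.3 and 2544 (1.52 ± 0.28 and 1.29 ± 0.13, limma, adjusted p = 0.00493 and 0.00039). In plasmablasts against activated B cells the same 5 genes were called higher. Among the reported genes Nlrc5 and Tap1 were called lower there, like Psmb8, Psmb9 and Psmb10 (21.3% higher and 33.9% lower over all genes). In the Blimp1-deficient comparison Nlrc5 and Tap1 were called higher and H2-K1, Irf1 and Tapbp lower, against 24.4% and 16.1% of all genes.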

How the data were processed

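Polyadenylated RNA was sequenced as strand-specific 50 nt reads, per the labels' protocols. The submitters' processing notes name build mm9 and, with no role or order, DESeq 1.8.3, HTSeq 0.5.3, SICER and TopHat 1.4.1. For the annotation and the use of strand in counting, nothing is given in the sources used here, and reads of a gene and an antisense partner may not be told apart. The authors deposited RPKM values per gene in 14 files, 8 of them corrected for GC content per the file names. The read depth is unknown: low RPKM values of the GC-corrected libraries shared no common step (at most 4.22% of low genes at the commonest ratio), so no counting error can be given. The other 24 samples of the series were not analysed here.

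Names were matched to the 46 members by the pattern, 5 read-counter summary names were dropped from the plasma cell files, and entries with a repeated name (126 of 11567 in the GC-corrected files) were left out. Tests used limma 3.58.1 in R 4.3.3 (two-sided, mean-variance trend) on log2(RPKM + 1), which understates changes of low genes, after a filter that kept genes reaching 1 RPKM in 2 or more libraries. The 4 groups of the GC-corrected files shared 1 fit. The script was tested on simulated data with known changes and independent noise in each library. A difference shared by the libraries of a series was not part of that test. The library series pairs the 8 libraries because every pair of groups had a correlation over 0.1 (0.666 to 0.781). Alternatives were a pseudocount of 0.1, no filter, median-of-ratios scaling, no trend, averaged repeated names, a 2-group fit, the series block and each library left out. Values per library are given for the catalytic subunits, activators, inhibitor and chaperones, for the members with the largest and the smallest difference in each other list, and for members called. From each pathway list up to 3 called genes with the largest difference are given, with Nfe2l1 and Pomp in any case. Members and lists were chosen with earlier results of these data known. The values of 1 gene of the class I antigen processing list are not reported here, while the count of genes measured and the median of that list include it.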

Additional observations from a re-analysis of the deposited data

How the results depend on the processing

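Counts of members called are given as higher and lower. With the replicate block of the library series they were 12 and 10 for pre-plasmablasts minus activated B cells (4 and 5 without it), 0 and 7 for plasmablasts minus pre-plasmablasts (0 and 0), 9 and 20 for plasmablasts minus activated B cells (3 and 7), 11 and 14 for Blimp1-deficient minus control pre-plasmablasts (4 and 5), and 3 and 7 for Blimp1-deficient pre-plasmablasts minus activated B cells (1 and 1). No paired analysis was made for GSK343 because its libraries and the DMSO libraries carry a single run of numbers, 26931 to 26934, without a second series. With median-of-ratios scaling they were 8 and 3, 0 and 0, 10 and 4, 2 and 10, and 1 and 0 in the same order, and 0 and 4 for GSK343 minus DMSO (1 and 3). With only the 2 groups in the fit, the Blimp1-deficient comparison gave 2 and 0 against control pre-plasmablasts (1875 and 1299 of all 10258 genes). Against activated B cells the Blimp1-deficient libraries gave 1 and 0 (724 and 476 of all 10158 genes). Pre-plasmablasts minus activated B cells gave 4 and 4 in such a fit (1830 and 2495 of all 10193 genes). Plasmablasts gave 3 and 6 against activated B cells (2089 and 3287 of all 10215) and 0 and 0 against pre-plasmablasts (1 and 0 of all 9993). Without the trend, pre-plasmablasts minus activated B cells gave 5 and 4 (2124 and 2921 of all genes). The Blimp1-deficient libraries gave 3 and 4 against control pre-plasmablasts (2553 and 1663 of all genes) and 1 and 0 against activated B cells (1081 and 756). GSK343 gave 0 and 1 without the trend (1167 and 386 of all genes). Without the filter, plasmablasts minus activated B cells gave 3 and 8 (2405 and 3723 of all 11441 genes). GSK343 then gave 0 and 0, with no gene called of 20650 tested in place of 9479. The cause of the other changes was not tested. Leaving out each library in turn gave 1 to 4 and 3 to 5 for pre-plasmablasts minus activated B cells, 0 to 0 and 0 to 0 for plasmablasts minus pre-plasmablasts, 2 to 3 and 5 to 7 for plasmablasts minus activated B cells, 2 to 4 and 0 to 4 for Blimp1-deficient minus control pre-plasmablasts, 0 to 1 and 0 to 0 for Blimp1-deficient pre-plasmablasts minus activated B cells, and 0 to 4 and 0 to 4 for GSK343 minus DMSO. Each fit without 1 library also called fewer of all genes than the full fit, except for GSK343 without the first DMSO library. No call of a named member was reversed under any of these alternatives. A pseudocount of 0.1 and averaging of repeated names left every count as it was. With 2 libraries a group and unknown depth, a member without a call may still differ.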
